A study of Homo sapiens with 12 samples.

Results

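The genes described here encode 9 enzymes that make serine and pass its carbon into the folate cycle: PHGDH, PSAT1 and PSPH of serine synthesis, SHMT2, MTHFD2, MTHFD1L and ALDH1L2 of the mitochondrial folate pathway, and SHMT1 and MTHFD1 of the cytosolic one. They were chosen by name from biochemistry, with earlier results of these data known. All 9 were found by Ensembl identifier among the 63152 rows of the count table. All 9 passed the filter on low counts, as did 16839 rows in all. Poly-A RNA was sequenced from 12 cultures in 3 groups of 4, which the labels call biological replicates: controls without drug, 2.5 µM acriflavine and 5 µM acriflavine, collected 24 h after the medium change. Per the treatment protocol the controls received the DMSO vehicle, although their treatment label reads "none". Acriflavine, an antiseptic made of acridine dyes, slips between DNA bases and has been described as an inhibitor of dimer formation by the hypoxia factor HIF-1. The cell line label reads HepG2, a human hepatoblastoma line, and the description names HepG2S1, a derivative selected with rising doses of the kinase inhibitor sorafenib, so every group, controls included, carries that selection and comes from 1 line.

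The library totals ran from 10733567 to 15116842 counts. Within a group, libraries correlated at 0.992 to 0.994 (Pearson's r over genes, log2 CPM). The liver label was checked against 10 hepatocyte markers, and all 10 were under 1 CPM (counts scaled to the library total) in the controls. ALB and AFP, the albumin and fetoprotein genes that define hepatic cells, had 0 control counts, which allows up to 0.0582 CPM. DCN and LUM, matrix genes of fibroblasts, stood at 541 and 116 CPM in the controls, whereas the collagen genes COL1A2 and COL3A1 had 0 control counts. COL1A1, also a collagen gene, stood at 21.6 CPM and the fibroblast marker PDGFRB at 4.33 CPM in the controls. The cells are therefore called cells labelled HepG2 below. The hepatocyte markers summed to 0.927–1.86 CPM in the controls, 1.05–2.37 CPM at 2.5 µM and 4.38–7.29 CPM at 5 µM. The 6 blood cell markers, all under 1 CPM in the controls and with CD3E at 0 control counts, summed to 0.754–1.29, 1.27–1.83 and 4.25–5.06 CPM. The 4 endothelial markers summed to 0.0754–0.285 CPM in the controls, 0.140–0.397 CPM at 2.5 µM and 1.26–2.33 CPM at 5 µM, with PECAM1 at 0 control counts. The 6 fibroblast markers summed to 591–743, 540–602 and 587–634 CPM. The part of these low signals in the results was not tested.

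Serine is built from a glycolytic intermediate by oxidation (PHGDH), transfer of an amino group from glutamate (PSAT1) and removal of a phosphate (PSPH). The hydroxymethyltransferases SHMT2 and SHMT1 then split serine into glycine and a carbon unit carried on tetrahydrofolate, which the mitochondrion oxidises and releases as formate and the cytosol uses for purines, thymidylate and methyl groups. Several of these genes are known targets of ATF4, a transcription factor induced by amino acid shortage and other stresses, and proliferating tumour cells often express the mitochondrial enzymes highly.

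Start regions of 6 of the 9 genes were matched in the RefSeq promoter table (GRCh38.p14, windows of 250 bases before to 50 after the start), and PSPH, SHMT2 and ALDH1L2 were not matched. Both strands were searched for TGATGNAA, the composite element bound by ATF4 with C/EBP proteins, CACGTG, the E-box bound by MYC, and TGACNNNGC, the core of the antioxidant response element. These occurred in 3.62%, 7.26% and 13.3% of all 35116 windows of this length. The matches are shown because ATF4, MYC and the antioxidant factor NFE2L2 are measured below, with each match in capitals and 10 bases on either side. The first is the composite element of MTHFD1L (chr6:150866347-150866374, plus strand), the second its E-box (chr6:150866322-150866347, plus strand), the third the E-box of MTHFD1 (chr14:64388328-64388353, plus strand) and the fourth the antioxidant core of MTHFD2, which reads on the opposite strand of the printed letters (chr2:74198611-74198639, plus strand shown).
MTHFD1L composite: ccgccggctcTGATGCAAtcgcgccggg
MTHFD1L E-box: cgcccggctcCACGTGcgcagccggc
MTHFD1 E-box: agtccctaagCACGTGggttgggttg
MTHFD2 antioxidant core: ttccctcccgGCGCAGTCAccggcgcggt
The 2 MTHFD1L matches do not overlap, although the printed stretches share their end base, and both lie in 3 of its 4 annotated windows, which themselves overlap. The windows of PHGDH, PSAT1 and SHMT1 held none of these 3 motifs, which says only that these letters are not in these windows.

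The 250 bases upstream of PSAT1, PHGDH and MTHFD2 are printed because these 3 genes have the largest falls at 5 µM among the 6 with a matched window. The capitals mark CCAAT, a common promoter element, which was added to the search after the windows were read. PSAT1 (chr9:78296875-78297124, plus strand) held 3 copies, MTHFD2 (chr2:74198365-74198614, plus strand) 2 copies and PHGDH (chr1:119711684-119711933, plus strand) 1 copy. Of all windows, 32% held CCAAT on either strand in these 250 bases and 9.53% held 2 or more. The matched genes with smaller falls held it upstream as well. In SHMT1 it began at bases -76 and -25 from the start, and in MTHFD1 at -216. In MTHFD1L it began at -193, -154 or -40 in 3 of its 4 annotated windows, and the remaining window held no CCAAT.
PSAT1: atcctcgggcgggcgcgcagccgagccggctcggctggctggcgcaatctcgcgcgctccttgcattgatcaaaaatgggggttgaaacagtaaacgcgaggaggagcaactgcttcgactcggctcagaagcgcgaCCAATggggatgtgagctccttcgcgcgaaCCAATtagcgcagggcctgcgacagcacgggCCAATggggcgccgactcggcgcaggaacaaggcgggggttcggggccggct
PHGDH: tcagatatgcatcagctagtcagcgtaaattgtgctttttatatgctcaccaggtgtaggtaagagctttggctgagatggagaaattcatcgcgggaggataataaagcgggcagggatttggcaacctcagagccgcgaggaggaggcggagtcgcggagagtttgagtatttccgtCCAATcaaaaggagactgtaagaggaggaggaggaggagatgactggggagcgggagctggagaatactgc
MTHFD2: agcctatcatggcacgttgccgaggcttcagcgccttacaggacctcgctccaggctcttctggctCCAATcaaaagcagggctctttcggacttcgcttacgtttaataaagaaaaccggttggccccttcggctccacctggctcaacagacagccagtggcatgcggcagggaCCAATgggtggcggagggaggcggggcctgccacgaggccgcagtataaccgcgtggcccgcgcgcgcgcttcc

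All 9 enzyme mRNAs were lower at 5 µM acriflavine than in the controls, from a fall of 1.29-fold for SHMT1 to 12.2-fold for ALDH1L2 (edgeR quasi-likelihood test, Benjamini-Hochberg adjusted p under 0.05 over all genes tested). In this comparison 39.4% of all genes tested were called lower, 38.7% higher and 78.2% in either direction, so the call alone is common. The 4 values of the 2 groups did not overlap for any of the 9 enzymes, and for 70.8% of all genes. The size was less so: 6 of the 9 fell at least 2-fold, against 10.8% of all genes, and the median log2 fold change of the 9 was -1.08 against -0.01 for all genes. Of these 6, PSPH (log2 -1.02) and SHMT2 (-1.08) lay close to the 2-fold cutoff. Both can miss it, since SHMT2 was at -0.95 with library size scaling and PSPH at -0.80 with its pseudogene counts added. At 2.5 µM, 8 of the 9 were called lower and 1, MTHFD1L, higher, where 28.5% of all genes were called lower, 30.7% higher and 59.1% in either direction. The groups did not overlap for 8 of the 9, against 50.5% of all genes. The median was -0.78 against 0.02 for all genes, and 3 of the 9 fell at least 2-fold, against 3.74%. At both doses 8 of the 9 were lower, against 23.3% of all genes. Because the 9 were chosen with earlier results of these data known, these shares are a description and no test of an excess. The 2 drug groups were compared with the same 4 control libraries, so their values are set side by side only. RNA from whole cultures cannot tell fewer cells expressing a gene from less RNA per cell.

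**Figure D1:**
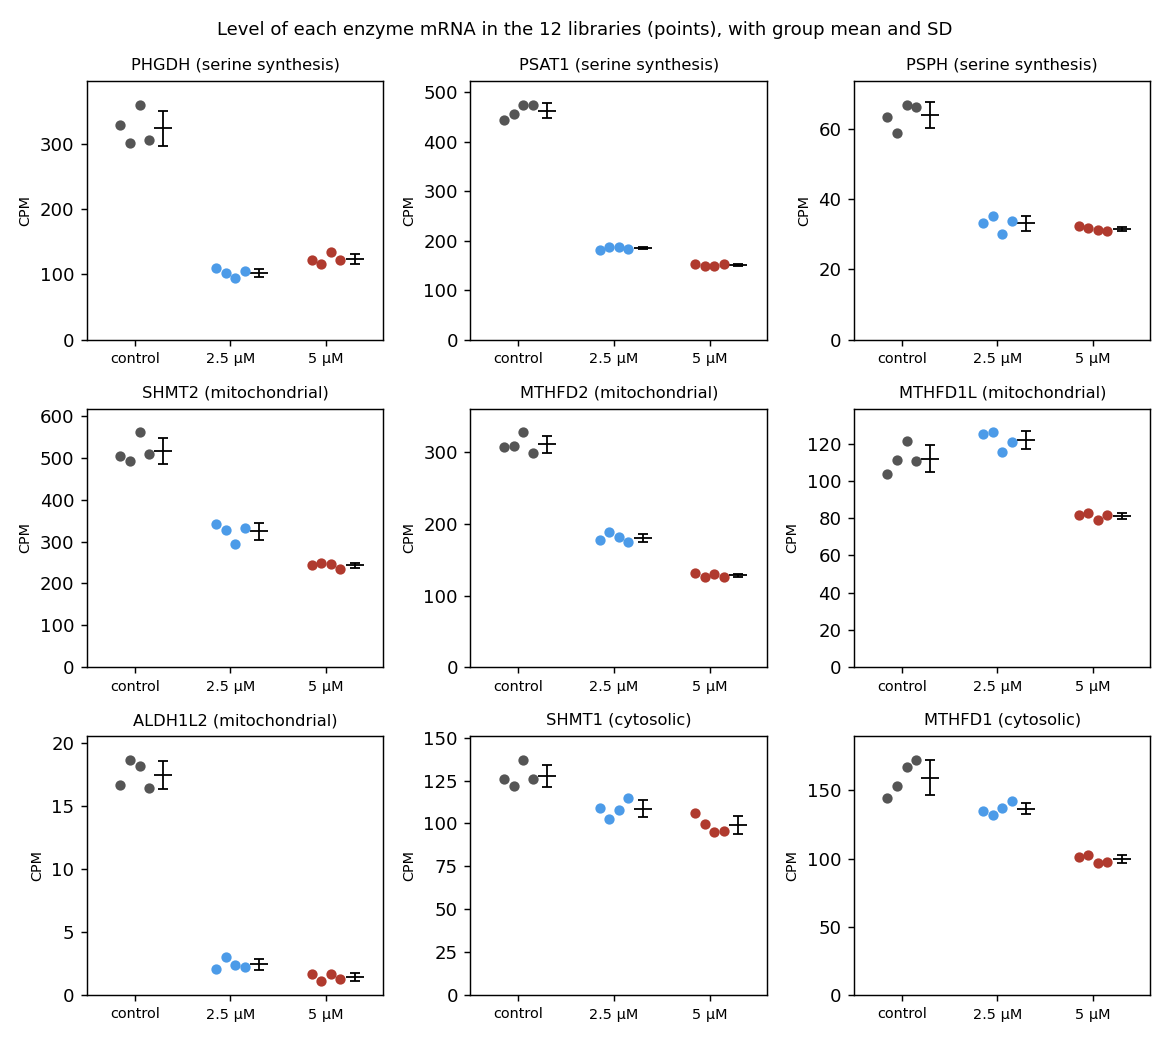
Level of each of the 9 enzyme mRNAs (CPM on the TMM-scaled library size, linear axes from 0) in the 4 control, 4 acriflavine 2.5 µM and 4 acriflavine 5 µM libraries, with each group's mean and SD as a bar beside its points. All 9 control groups lie above the 5 µM groups, PHGDH is lowest at 2.5 µM, and the MTHFD1L libraries at 2.5 µM overlap the controls.

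PHGDH, the dehydrogenase that commits the glycolytic carbon to serine, was at 329, 301, 361 and 307 CPM in the controls. At 2.5 µM it was at 110, 102, 95.2 and 105 CPM, and at 5 µM at 122, 115, 134 and 122 CPM. All drug libraries lay below every control, and the 2.5 µM libraries lay below every 5 µM library, so the lower dose had the lower level. The log2 fold change was -1.66 ± 0.06 (SE, edgeR adjusted p = 1.36e-21) at 2.5 µM and -1.39 ± 0.06 (1.17e-20) at 5 µM. Between the doses PHGDH was 1.20-fold higher at 5 µM (log2 0.26 ± 0.06, edgeR adjusted p = 0.000190), and it was the only one of the 9 called higher at that step.

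PSAT1, the aminotransferase of the next step, was at 443.5, 455, 474 and 475 CPM in the controls, 182, 186, 188 and 184 CPM at 2.5 µM, and 152, 149, 148.5 and 153 CPM at 5 µM. The 3 groups did not overlap and fell in the order of dose. Its log2 fold changes were -1.32 ± 0.04 (edgeR adjusted p = 2.63e-23) at 2.5 µM and -1.62 ± 0.04 (3.19e-26) at 5 µM, a fall of 3.06-fold at the higher dose.

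PSPH, the phosphatase that releases serine, stood at 63.3, 58.8, 66.9 and 66.3 CPM in the controls. It was at 33.3, 35.1, 30.1 and 33.6 CPM at 2.5 µM and at 32.3, 31.7, 31.1 and 30.9 CPM at 5 µM. Both drug groups lay below all controls and overlapped each other. The log2 fold changes were -0.95 ± 0.06 (edgeR adjusted p = 1.27e-14) and -1.02 ± 0.06 (5.00e-16), and the step from 2.5 to 5 µM was -0.07 ± 0.07 (0.353), which did not pass the test. Adding the counts of its pseudogene row PSPHP1, which held 17.7% as many counts as PSPH in the controls and was at 0.05 (edgeR adjusted p = 0.674) at 5 µM, gave a fall of 0.80 on the log2 scale in place of 1.02.

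SHMT2, the mitochondrial hydroxymethyltransferase, was at 503, 491, 561 and 509 CPM in the controls, 341, 327, 295 and 333 CPM at 2.5 µM, and 244, 249, 247 and 235 CPM at 5 µM. The 3 groups were apart, each dose below the last. The log2 fold changes were -0.67 ± 0.05 (edgeR adjusted p = 5.97e-14) at 2.5 µM and -1.08 ± 0.05 (4.54e-20) at 5 µM.

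MTHFD2, the mitochondrial dehydrogenase and cyclohydrolase that takes the carbon unit onward, had 307, 308, 328 and 299 CPM in the controls. It had 178, 188, 182 and 175 CPM at 2.5 µM and 131, 126, 130 and 126 CPM at 5 µM. These groups were also apart, in the order of dose. Its log2 fold changes were -0.78 ± 0.04 (edgeR adjusted p = 1.35e-16) and -1.28 ± 0.05 (6.83e-23).

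MTHFD1L, the ligase that releases formate from the mitochondrion, followed another course. It was at 104, 111, 121 and 111 CPM in the controls, 125, 126, 115 and 121 CPM at 2.5 µM, and 81.5, 82.9, 79.0 and 81.6 CPM at 5 µM. The control and 2.5 µM libraries overlapped, and all 5 µM libraries lay below both. At 2.5 µM the gene passed the test as 1.09-fold higher (log2 0.12 ± 0.05, edgeR adjusted p = 0.0337), a call that was lost in 11 of 21 alternative analyses. These were DESeq2 and leaving out any single library other than control replicate 3 and 2.5 µM replicate 3, and over all 21 the adjusted p ranged from 0.00306 to 0.155. At 5 µM it was lower by 0.46 ± 0.05 (log2, edgeR adjusted p = 9.83e-10) than in the controls.

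ALDH1L2, which oxidises formyl-tetrahydrofolate in the mitochondrion and yields NADPH, had the lowest level and the largest fold of the 9. Its raw counts were 214, 255, 203 and 194 in the controls, 27, 43, 31 and 33 at 2.5 µM, and 19, 13, 23 and 20 at 5 µM. In CPM these were 16.7, 18.7, 18.2 and 16.4, then 2.04, 3.02, 2.39 and 2.22, then 1.69, 1.12, 1.68 and 1.25. The controls were far above all drug libraries, and the 2 drug groups did not overlap although both rest on few reads. The log2 fold changes were -2.85 ± 0.13 (edgeR adjusted p = 3.49e-19) at 2.5 µM, a 7.20-fold fall, and -3.61 ± 0.14 (1.81e-21) at 5 µM, a 12.2-fold fall.

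SHMT1, the cytosolic hydroxymethyltransferase, had the smallest fold change of the 9 at 5 µM. It was at 126, 122, 137 and 126 CPM in the controls, 109, 103, 108 and 115 CPM at 2.5 µM, and 106, 99.4, 95.2 and 95.6 CPM at 5 µM. Every drug library lay below every control, while the 2 doses overlapped. The log2 fold changes were -0.23 ± 0.05 (edgeR adjusted p = 0.000199) and -0.37 ± 0.05 (9.13e-08). The step from 2.5 to 5 µM was -0.13 ± 0.05 (0.0224), and that call was lost in 7 of 21 alternatives (3 other scalings, DESeq2, and without 2.5 µM replicate 4, 5 µM replicate 3 or 5 µM replicate 4), with adjusted p from 0.0103 to 0.425 over all 21.

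MTHFD1, the cytosolic enzyme that joins the dehydrogenase, cyclohydrolase and synthetase activities, had 145, 153, 167 and 172 CPM in the controls. It had 135, 132, 137 and 142 CPM at 2.5 µM and 101, 103, 96.5 and 97.4 CPM at 5 µM. The groups did not overlap, with the controls of replicates 1 and 4 farthest apart. The log2 fold changes were -0.22 ± 0.05 (edgeR adjusted p = 0.000371) and -0.68 ± 0.05 (9.57e-14).

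**Figure D2:**
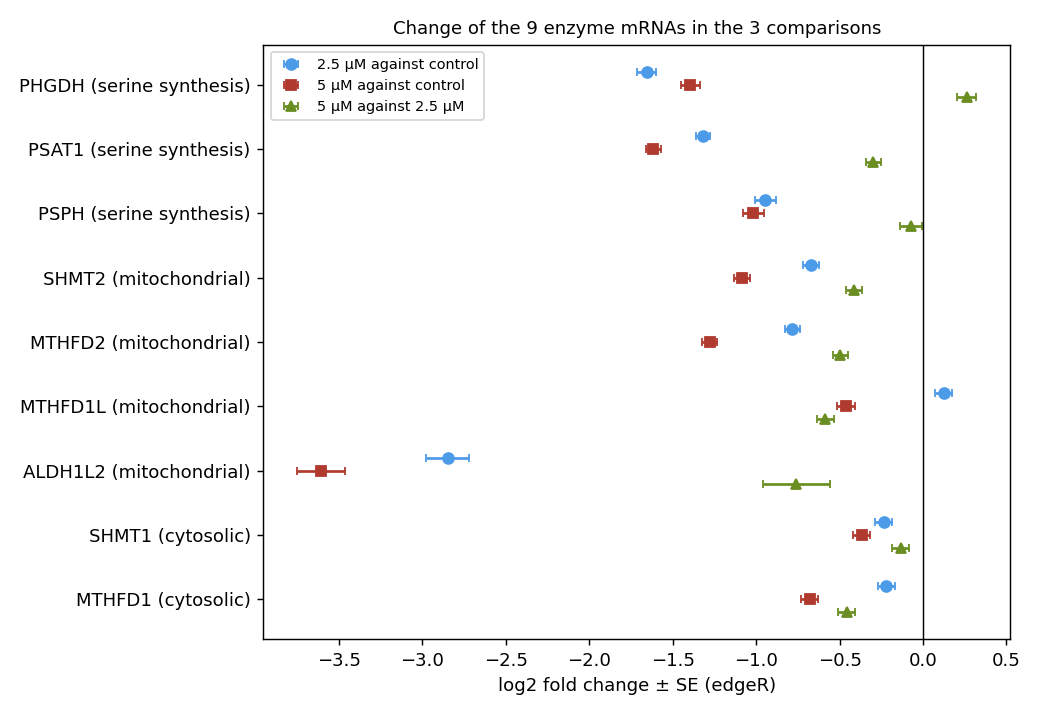
Log2 fold change of each enzyme mRNA from the edgeR fit, with its standard error as the bar, for 2.5 µM against control, 5 µM against control and 5 µM against 2.5 µM. ALDH1L2 reaches -3.61 at 5 µM, and MTHFD1L at 2.5 µM and PHGDH between the doses are the values above 0.

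From 2.5 to 5 µM, 7 of the 9 were called lower, 1 higher (PHGDH) and 1 (PSPH) did not pass, where 34.8% of all genes were called lower, 33.6% higher and 68.4% in either direction. The 2 doses did not overlap for 7 of the 9, against 62.1% of all genes. The steps were -0.30 for PSAT1, -0.41 for SHMT2, -0.50 for MTHFD2, -0.59 for MTHFD1L, -0.76 for ALDH1L2 and -0.46 for MTHFD1 on the log2 scale. Whether the second step differed from the first was tested as a contrast in the same fit, the second log2 step minus the first. For a gene that fell from 0 to 2.5 µM, a positive value means a smaller fall or a rise from 2.5 to 5 µM. The contrast was positive for 6 of the 9, negative for 2 and not called for SHMT1. Of all genes, 21.8% were called positive, 26.8% negative and 48.6% in either direction.

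The serine synthesis genes carried large first steps: the difference between steps was 1.92 ± 0.10 (log2, edgeR adjusted p = 5.96e-16) for PHGDH, 1.02 ± 0.07 (3.95e-13) for PSAT1 and 0.88 ± 0.11 (1.02e-07) for PSPH. ALDH1L2 was at 2.09 ± 0.30 (edgeR adjusted p = 7.88e-07). SHMT2 and MTHFD2 fell in more even steps, with differences of 0.26 ± 0.08 (edgeR adjusted p = 0.0100) and 0.29 ± 0.08 (0.00243), of which the SHMT2 call was lost without replicate 3 of 2.5 µM (0.17, 0.115). MTHFD1L went the opposite way, at -0.71 ± 0.09 (edgeR adjusted p = 3.34e-08), with its fall in the second step. MTHFD1 was also negative, at -0.24 ± 0.09 (0.0272), but its call was lost in 8 of 20 alternatives (adjusted p 0.00661 to 0.135). These were 3 other scalings, DESeq2, and leaving out control replicate 1, 2.5 µM replicate 4, 5 µM replicate 3 or 5 µM replicate 4.

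The balance between the compartments was read from count ratios within each library, which do not depend on scaling. SHMT2 had 3.99, 4.03, 4.09 and 4.04 counts for each SHMT1 count in the controls, 3.13, 3.19, 2.73 and 2.90 at 2.5 µM and 2.30, 2.50, 2.59 and 2.46 at 5 µM. These groups did not overlap, and the log2 ratio was lower by 0.71 at 5 µM and by 0.44 at 2.5 µM (two-sided exact permutation test, p = 0.0286 each, the smallest that 4 against 4 libraries allow, and 0.0321 after adjustment over 9 tests). MTHFD2 had 2.13, 2.01, 1.96 and 1.73 counts per MTHFD1 count in the controls, 1.31, 1.43, 1.32 and 1.23 at 2.5 µM and 1.29, 1.23, 1.34 and 1.29 at 5 µM. Both drug groups lay below the controls, with log2 differences of -0.56 at 2.5 µM and -0.60 at 5 µM (exact permutation p = 0.0286, adjusted 0.0321), and the drug groups overlapped (difference -0.04, exact p = 0.429).

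MTHFD1L against MTHFD1 moved in the other direction, from 0.718, 0.726, 0.727 and 0.643 in the controls to 0.925, 0.957, 0.840 and 0.852 at 2.5 µM and 0.805, 0.806, 0.819 and 0.837 at 5 µM. The controls were lowest and the 2.5 µM libraries highest, with no overlap. The log2 ratio was higher by 0.34 at 2.5 µM and 0.22 at 5 µM (exact permutation p = 0.0286, adjusted 0.0321). Between the doses the SHMT2 to SHMT1 log2 ratio was lower by 0.28 (1.21-fold) and the MTHFD1L to MTHFD1 log2 ratio by 0.13 (1.09-fold), each with an adjusted exact permutation p of 0.0321 and no overlap of the groups. Leaving out single libraries, which cannot make separate groups overlap, gave differences from -0.32 to -0.24 and from -0.16 to -0.094. The adjusted p then reached 0.0735 (without 5 µM replicate 1, 2 or 4) and 0.129 (without any single 5 µM replicate), and the second call was also lost with pseudogene counts added. With 3 libraries against 4 the exact p moves in coarse steps, so these p-values say little about stability.

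**Figure D3:**
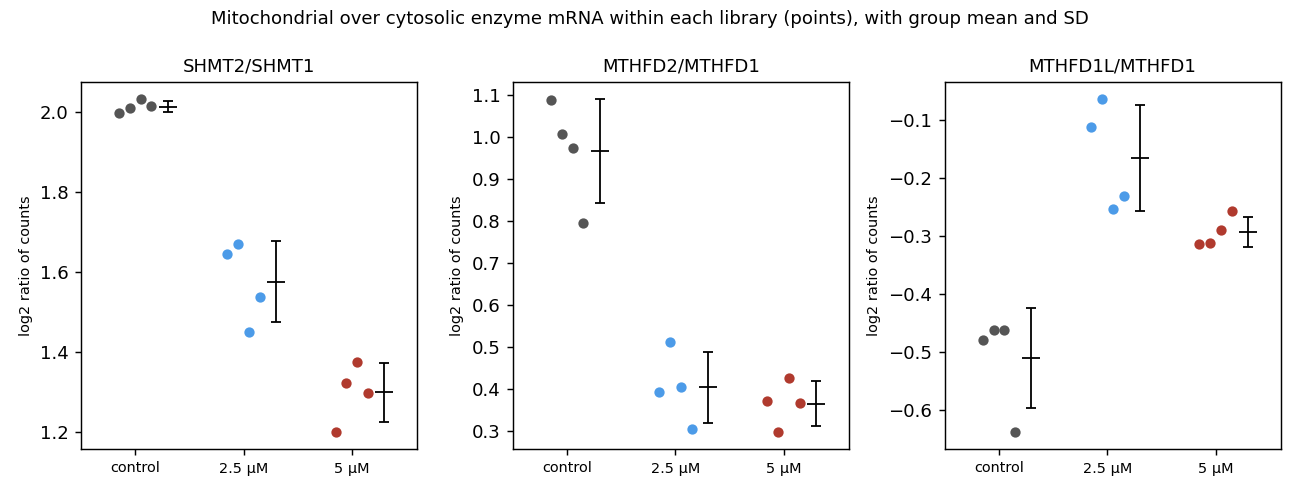
Log2 of the count ratio of a mitochondrial to a cytosolic enzyme in each of the 12 libraries (points), by group, with the mean and SD as a bar, for SHMT2 to SHMT1, MTHFD2 to MTHFD1 and MTHFD1L to MTHFD1 (the axes do not start at 0). The mean of the first falls from 2.01 in the controls to 1.58 at 2.5 µM and 1.30 at 5 µM, the second overlaps between the doses, and the third lies above its controls at both doses.

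Levels were compared between genes per kilobase of annotated exon. In the controls PSAT1 was highest at 211 ± 6.88 CPM per kb (SD, n = 4), followed by SHMT2 at 107 ± 6.36, MTHFD2 at 63.8 ± 2.49 and PHGDH at 35.2 ± 2.92. PSPH (23.1 ± 1.34) and MTHFD1L (22.3 ± 1.43) had overlapping ranges, as had SHMT1 (17.6 ± 0.891) and MTHFD1 (17.0 ± 1.35), and ALDH1L2 was lowest at 2.06 ± 0.130. PHGDH went from rank 4 in the controls to rank 8 at 2.5 µM and rank 6 at 5 µM. Its libraries overlapped those of PSPH at 2.5 µM and of SHMT1 at 5 µM, so these ranks are not exact. Counts of pseudogene rows are not part of these levels. Exon length here is the union over all annotated transcripts, so the level of a gene with long alternative exons is understated. Together the 9 genes took 0.197–0.210% of all counts in the controls, 0.114–0.120% at 2.5 µM and 0.0997–0.102% at 5 µM.

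Of the 9, 5 have rows of pseudogene copies in the table, whose reads cannot be told apart from the enzyme with certainty. In the controls the MTHFD1P1 row held 52.2% as many counts as MTHFD1, the 4 PSAT1 copies 28.2% as many as PSAT1, the 7 MTHFD2 copies 19.7% and SHMT1P1 10.1%. MTHFD1P1 was at -0.62 (log2, edgeR adjusted p = 7.26e-12) at 5 µM, beside -0.68 for MTHFD1. With the copies summed into their enzymes, all 9 were still called lower at 5 µM.

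The neighbouring pathway genes were taken from lists fixed by name, with earlier results of these data known. In the folate cycle and thymidylate list, 10 of 12 genes were tested: 7 were lower, 1 higher and 2 not called at 5 µM (median log2 -0.24), and 4 lower, 1 higher and 5 not called at 2.5 µM. Of all genes tested, 39.4% were called lower, 38.7% higher and 78.2% in either direction at 5 µM. The same shares were 28.5%, 30.7% and 59.1% at 2.5 µM, and these counts are a description beside them. TYMS, the thymidylate synthase, was at -0.13 ± 0.04 (edgeR adjusted p = 0.00657) at 5 µM but at 0.0078 when scaled by library size alone. Its sign was therefore not kept under that scaling, and its call was lost in 2 of 21 alternatives. MTHFD2L, a close relative of MTHFD2, was at -0.29 ± 0.10 (edgeR adjusted p = 0.0119), lost with library size scaling (0.164). With that scaling 4 genes of this list were lower.

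Genes of glycine cleavage and serine use split: of 11 tested of 12, 6 were higher, 4 lower and 1 not called at 5 µM (median 0.30). At 2.5 µM, 3 were higher, 4 lower and 4 not called (median -0.20). Over all genes, 38.7% were called higher and 39.4% lower at 5 µM, and 30.7% and 28.5% at 2.5 µM. CBS, which joins serine to homocysteine, fell from 90.1 CPM to 19.8 at 2.5 µM and 13.4 at 5 µM, by 2.18 and 2.74 on the log2 scale (edgeR adjusted p = 3.62e-19 and 9.04e-22). CTH, the next enzyme of that route, was at 31.8, 23.6 and 39.0 CPM, lower at 2.5 µM and higher at 5 µM (log2 -0.43 and 0.30), although its 5 µM libraries overlapped the controls. GCSH of the glycine cleavage system was lower at 5 µM (log2 -1.20, edgeR adjusted p = 0.00021) with group means under 2 CPM, and GLDC was at 0.12 (0.694). In the methionine cycle 3 of 6 genes were tested, of which 2 were lower and 1 higher at 5 µM, and 1 lower, 1 higher and 1 not called at 2.5 µM. MAT2A, which makes the methyl donor, went from 248 to 212 and 150 CPM (log2 -0.73 at 5 µM), and AHCY, which hydrolyses the product of methyl transfer, was at -0.27 at 5 µM. The higher gene, named after its values were seen, was MAT2B, the regulatory subunit that binds MAT2A, at 78.7, 105 and 106 CPM (log2 0.41 at 2.5 µM and 0.43 at 5 µM, edgeR adjusted p = 6.36e-09 and 9.24e-10).

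All 10 transport genes were called lower at 5 µM (median -0.79), 9 of 10 under each of 3 other scalings, and 8 were lower and 1 higher at 2.5 µM. Over all genes, 39.4% were called lower at 5 µM, and 28.5% lower and 30.7% higher at 2.5 µM. SLC1A5, a carrier of neutral amino acids, stood at 315 CPM in the controls, 122 at 2.5 µM and 127 at 5 µM. SLC19A1, the folate carrier of the plasma membrane, went from 73.5 to 37.0 and 34.2 CPM, and SLC25A32, its mitochondrial counterpart, from 35.8 to 31.7 and 17.2 CPM. SFXN1, the mitochondrial serine carrier, was higher at 2.5 µM (218 to 242 CPM, log2 0.15 ± 0.05, edgeR adjusted p = 0.00738) and lower at 5 µM (162 CPM, -0.43 ± 0.05, 1.06e-09). The group means of MTHFD1L had the same order, but its libraries at 2.5 µM overlapped the controls and that call was lost in 11 of 21 alternatives. SLC1A4, a serine and alanine carrier, was lowest at 2.5 µM (52.6, 26.3 and 34.4 CPM), as PHGDH was.

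The 6 genes of purine ring synthesis, a main use of the cytosolic carbon unit, were all lower at 5 µM (median -1.13), and 5 of 6 were lower at 2.5 µM (median -0.38). Over all genes, 39.4% were called lower at 5 µM and 28.5% at 2.5 µM. ATIC, which adds the last formyl carbon, fell from 219 to 163 and 88.8 CPM, by 0.43 and 1.30 on the log2 scale. PAICS fell from 468 to 376 and 241 CPM. Between the doses the ATIC step was -0.87 ± 0.05 (edgeR adjusted p = 1.46e-16), and the contrast of the steps was -0.45 ± 0.08 (4.14e-05), the opposite sign to that of the serine synthesis genes. PPAT, the first enzyme of the route, was at -0.11 (0.212) at 2.5 µM and -0.48 (2.13e-06) at 5 µM.

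Of 10 regulators and stress-response genes, 7 were lower, 2 higher and 1 not called at 5 µM, and 8 lower and 1 higher at 2.5 µM. Over all genes, 39.4% were called lower and 38.7% higher at 5 µM, and 28.5% and 30.7% at 2.5 µM. ATF4 fell in even steps, from 408 to 176 and 79.3 CPM, with a contrast of steps of 0.06 ± 0.09 (edgeR adjusted p = 0.617). ASNS, the asparagine synthetase and an ATF4 target, was at 321, 58.3 and 85.6 CPM, lowest at 2.5 µM like PHGDH, with a contrast of 3.02 ± 0.14 (1.49e-13). MYC was at 398, 321 and 155 CPM with a contrast of -0.75 ± 0.09 (9.02e-09), so its larger fall was from 2.5 to 5 µM. The genes called higher at 5 µM were NFE2L2, the factor of the antioxidant response, at 55.3, 47.3 and 67.0 CPM, and ATF5, a relative of ATF4 named after its values were seen. ATF5 rose from 21.6 to 91.1 and 146 CPM, by 2.08 ± 0.08 and 2.76 ± 0.08 on the log2 scale (edgeR adjusted p = 9.66e-19 and 1.70e-22). Library size scaling left the 7 lower genes of this list at 7 and called 3 higher in place of 2.

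**Figure D4:**
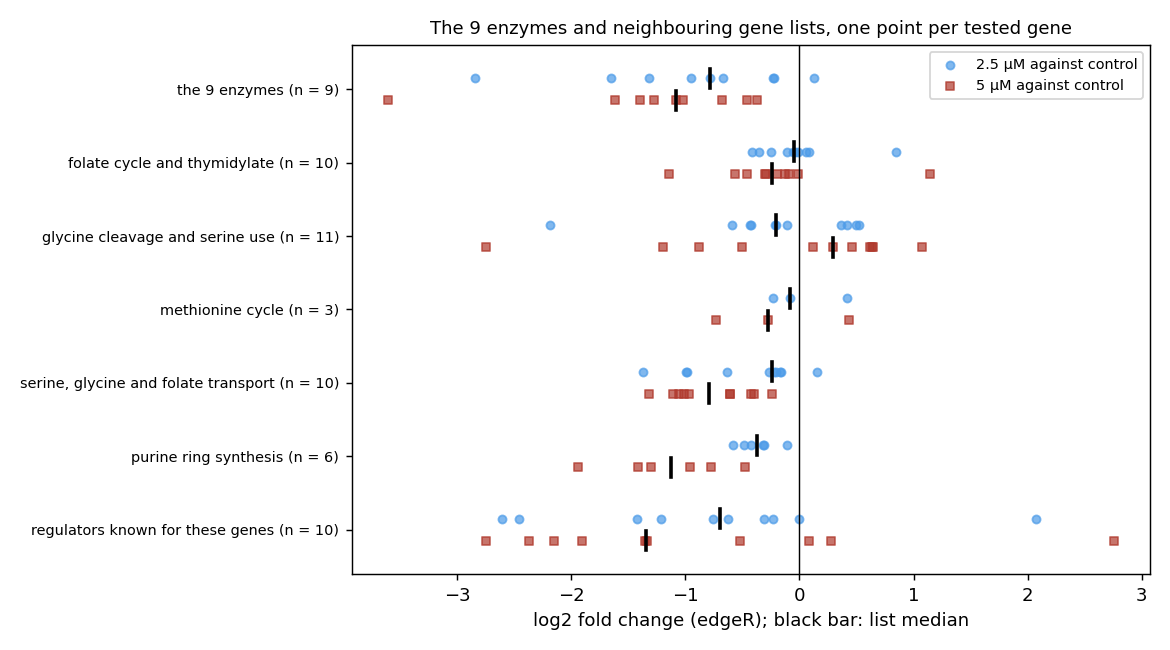
Log2 fold change of each tested gene (points) in the 9 enzymes and 6 neighbouring lists, for 2.5 µM and 5 µM against the same controls, with the median of each list as a bar. The medians at 5 µM run from -1.35 for the list of regulators and stress-response genes to 0.30 for glycine cleavage and serine use.

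The genes whose log2 CPM ran most alike over the 12 libraries were sought among 13213 genes with Pearson's r, a description in which the 3 group means carry most of the value. For PHGDH these were EDF1 (0.996) and SLC7A5 (0.996), for PSAT1 TM4SF1 (0.998) and SKIC8 (0.997), for SHMT2 NAPRT (0.997) and TRIB3 (0.996), and for MTHFD2 SERPINB5 (0.998) and EPRS1 (0.998). ALDH1L2 ran with KIF21B (0.995) and KDELR3 (0.994), and PSPH with MARS1 and SLC1A5 (0.992 each). Among the 9 themselves, PSAT1 was closest to ALDH1L2 (0.992) and SHMT2 to MTHFD2 (0.990), while MTHFD1L reached only 0.843, with MTHFD1. For MTHFD1L the nearest rows were TPM4P3 (0.992) and YWHAEP1 (0.986), for SHMT1 EXOSC5 (0.988) and for MTHFD1 PSMB1 (0.993).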

How the data were processed

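Gene counts of 12 libraries were analysed. Per the labels' protocols, poly-A RNA libraries were made with a stranded kit and sequenced on a NextSeq500. The authors deposited raw counts per Ensembl gene, and the submitters' processing notes name GRCh 37, STAR 2.4.1d, Bowtie2 2.2.4, cutadapt 1.7.1, featureCounts 1.4.6 and edgeR 3.8.6. Not given in the sources used here are the strand setting, how multiply mapped reads were counted, and the gene annotation.

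All 12 libraries were fitted together with edgeR 4.0.16 (R 4.3.3): filterByExpr, TMM scaling, robust quasi-likelihood fit on 3 groups with 9 residual degrees of freedom, and Benjamini-Hochberg adjustment over 16839 genes at 0.05. The design was unpaired. The SE is the log2 fold change divided by the square root of the F statistic. CPM uses TMM-scaled totals, except in the marker check. Symbols were found for 39560 rows holding 97.9% of counts. Exon lengths came from another build's annotation (GENCODE on GRCh38), so no gene coordinates were taken from it.

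The members and gene lists were chosen with earlier results of these data known. All 9 enzymes were named whatever their values, with a fixed set from each list and the 2 nearest genes by correlation. Some genes of that set are not reported here. Alternatives covered scaling, filter, DESeq2 1.42.0, limma-voom 3.58.1, replicate number, 2-group fits and leaving out each library, and copies summed into their enzymes were added after seeing the data. The script was tested on simulated data. No 2 of 66 library pairs were identical, and the p-values measure the spread between these cultures.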

Additional observations from a re-analysis of the deposited data

Results flagged for a closer look

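Among 93 groups of 4 values checked for a sample far from the other 3, 4 were found, and chance gives about 1 in 20. None was one of the 9 enzymes. GCSH in replicate 4 of 5 µM was at 1.00 CPM, against 0.659–0.713 CPM in the others. MAT2A in control replicate 4 was at 269 CPM, against 239–243 CPM. SLC25A32 in replicate 3 of 2.5 µM was at 32.8 CPM, against 31.3–31.5 CPM. PAICS in replicate 4 of 5 µM was at 248 CPM, against 238–239 CPM.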

How the results depend on the processing

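For the 9 enzymes' own fold changes, 720 values under alternatives kept their side of the threshold and 27 lost the call, none of them at 5 µM against control. The PSPH step from 2.5 to 5 µM, which was never called, turned from -0.07 to 0.019 (log2) with library size scaling. With DESeq2, 0 enzymes were called higher at 2.5 µM in place of 1, and leaving out single libraries gave 0 to 1. The number of enzymes with a negative contrast of steps was 1 in place of 2 with RLE, upper quartile and library size scaling and with DESeq2, and 1 to 2 when single libraries were left out. Between the doses the SHMT2 to SHMT1 log2 ratio ran from -0.32 to -0.24 and the MTHFD1L to MTHFD1 ratio from -0.16 to -0.094 when single libraries were left out, and the latter was -0.12 with copies summed. TYMS at 5 µM turned from -0.13 to 0.0078 with library size scaling, which moved the median of all genes by 0.13 at 5 µM and the share of calls that were higher from 49.6% to 58.3%. With the replicate number as a block, 9, 9 and 8 of the 9 enzymes were called at 5 µM against control, 2.5 µM against control and between the doses, the same counts as without it, and 13091 genes in all in place of 13165 at 5 µM. Same-numbered libraries did not deviate together (correlations from -0.130 to 0.0745), and 4 of 8 libraries at 5 µM against control and 0 of 8 in each other comparison correlated best with their own number, so the numbers were not used to pair. The 75 counts of ALDH1L2 over the 5 µM libraries limit its precision.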
